A study of Mus musculus with 38 samples.

Results

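Dermal papilla cells from the dorsal skin of mice at postnatal day 56 (P56) gave 4 bulk RNA libraries, 2 from mutant mice with nevus skin and 2 from wild type (WT) mice. They were taken by their labels, by cell type, genotype and age, out of 38 libraries in 19 groups. The mutant mice carried Tyr-Nras Q61K, an oncogenic *Nras* expressed constitutively from tyrosinase regulatory sequence, which is active in the melanocyte lineage. WT mice had no such allele, and the sources name no treatment for either group. Mutant skin is densely populated by nevus melanocytes and serves as a model of a hairy congenital nevus. The gate used to sort papilla cells was not given in these sources. RNA from 10 ng of total RNA per library was sequenced, and the authors deposited FPKM per gene (fragments scaled to transcript length and library size). Another 4 libraries of the same cell type, 2 mutant and 2 WT at P30, helped to estimate the spread and are used below as the other age. The study's methods describe its bulk RNA samples as biological replicates, the labels do not tie libraries to animals, and the study used animals of both sexes. Each p-value is set against the scatter of libraries within a group.

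The dermal papilla is a cluster of specialised fibroblasts at the base of the hair follicle (HF). In growth (anagen) it sits inside the hair bulb, and through secreted WNT activators, FGFs and BMP inhibitors it drives the epithelial cells that make the hair shaft. In rest (telogen) it is a compact ball below the stem cells of the bulge and hair germ, and its signals decide when these are recruited. WT follicles are in anagen at P30 and in telogen at P56, so the comparison at P56 asks how papilla cells of nevus skin differ from papilla cells of resting WT skin. The study reports that mutant skin holds a mixture of anagen and telogen follicles, with many in anagen at P56. Hair cycle phase and genotype therefore cannot be told apart in the P56 comparison.

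Of 21417 genes in the table, 12090 protein-coding genes on autosomes passed the filter of 1 FPKM in at least 2 of the 4 libraries and were tested. A gene under 1 FPKM in both libraries of a genotype passed only through the other genotype, so its direction was fixed by the filter. At P56, 637 genes were higher and 956 were lower in mutant papilla libraries, which is 13.2% of those tested (5.27% higher and 7.91% lower). A gene was called where its adjusted p was under 0.05 and its level differed 2-fold or more on the log2(FPKM + 1) scale, a scale that understates the change of genes with low values. Rose and fell are used below of called genes only, each log2 change is mutant minus WT on that scale with its standard error (SE), and adjusted p-values come from limma with Benjamini-Hochberg adjustment over all genes tested. The median change over all genes tested was -0.01. The table holds no counts, so the depth of each library is not known from it, and the study's methods give only a range of reads for its bulk libraries. FPKM sums of the 8 dermal papilla libraries were 583549 to 647384, and 12420 to 13205 genes reached 1 FPKM. The log2 values of the 2 WT libraries correlated across genes at 0.951 and those of the mutant libraries at 0.958, against 0.843 to 0.920 between a WT and a mutant library.

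Sex differed with genotype in these libraries. *Xist*, the RNA of the inactive X chromosome in females, stood at 22.4 and 22.7 FPKM in the WT libraries and at 0.02 and 0 FPKM in the mutant libraries. The Y-linked *Ddx3y* was listed at 0 in both WT libraries and at 46.8 and 38.8 FPKM in the mutant libraries. At P30 the order was the opposite, with *Xist* at 20.4 and 23.9 FPKM in mutant libraries and at 0 in WT libraries. Effects of sex and genotype on autosomal genes at P56 cannot be told apart in these libraries. Averaged over both ages each genotype has 2 libraries of each sex, though an effect of sex that differs between the ages stays in this average. The average, chosen after the data were seen, is given below for a part of the genes and lists. It called 548 genes (147 higher and 401 lower, 4.53% of those tested, 1.22% higher and 3.32% lower).

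Markers of neighbouring cell types moved with genotype as well. The summed FPKM of Schwann cell markers was 1494 and 728 in the WT libraries and 42.0 and 80.5 in the mutant libraries. Markers of dermal sheath and mural cells, the smooth muscle of the follicle and of vessels, summed to 4998 and 4440 FPKM in WT and to 1233 and 723 FPKM in mutant libraries. At P30 no dermal papilla library exceeded 81.7 FPKM for the Schwann cell markers or 455.6 FPKM for the sheath and mural markers. Mutant replicate 2 held 2046 FPKM of keratinocyte markers, against 243 in mutant replicate 1 and 295 and 437 in WT. Markers of macrophages and myeloid cells summed to 224 and 81.1 FPKM in WT and 108 and 208 FPKM in mutant libraries, and 1 of the 13 tested, *S100a8*, rose. Markers of lymphocytes and mast cells summed to 4.89 to 11.05 FPKM. The pan-leukocyte gene *Ptprc*, chosen after its values were seen, was at 0 to 0.29 FPKM. Melanocyte markers summed to 274 and 136 FPKM in WT and 397 and 282 FPKM in mutant libraries, with 6 of 11 tested higher and 2 lower. The study names *Spp1*, *Igfbp2*, *Igfbp4*, *Fgf7*, *Bmp4*, *Wisp1*, *Wif1* and *Dhh* among factors raised in nevus melanocytes. It also reports the tumour suppressor *Cdkn2b* as raised in them. What part melanocyte RNA had in the values of these genes was not tested. In bulk samples, fewer cells of a type and less RNA per cell cannot be told apart.

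Dermal papilla markers were present in both genotypes, but unevenly. The 10 dermal papilla markers summed to 1064 FPKM in WT replicate 1 and 4250 in WT replicate 2, and to 6708 and 8102 in the mutant libraries, so that WT replicate 1 stood apart. In both WT libraries these markers summed to less than the dermal sheath and mural markers (4998 and 4440 FPKM), though the lists hold different genes. In WT replicate 1 they were also under the Schwann cell markers (1494 FPKM) and the dermal fibroblast markers (3553 FPKM). In the P30 libraries the dermal papilla markers summed to 9013 to 14205 FPKM. The plot of marker sums shows the lists side by side. Leaving out WT replicate 1 or mutant replicate 2 reduced the number of called genes from 1593 to 947 and 934, so each call below was recomputed without each of the 8 libraries in turn. The calls of the genes named below held in all 8 of these fits unless an exception is given.

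**Figure D1:**
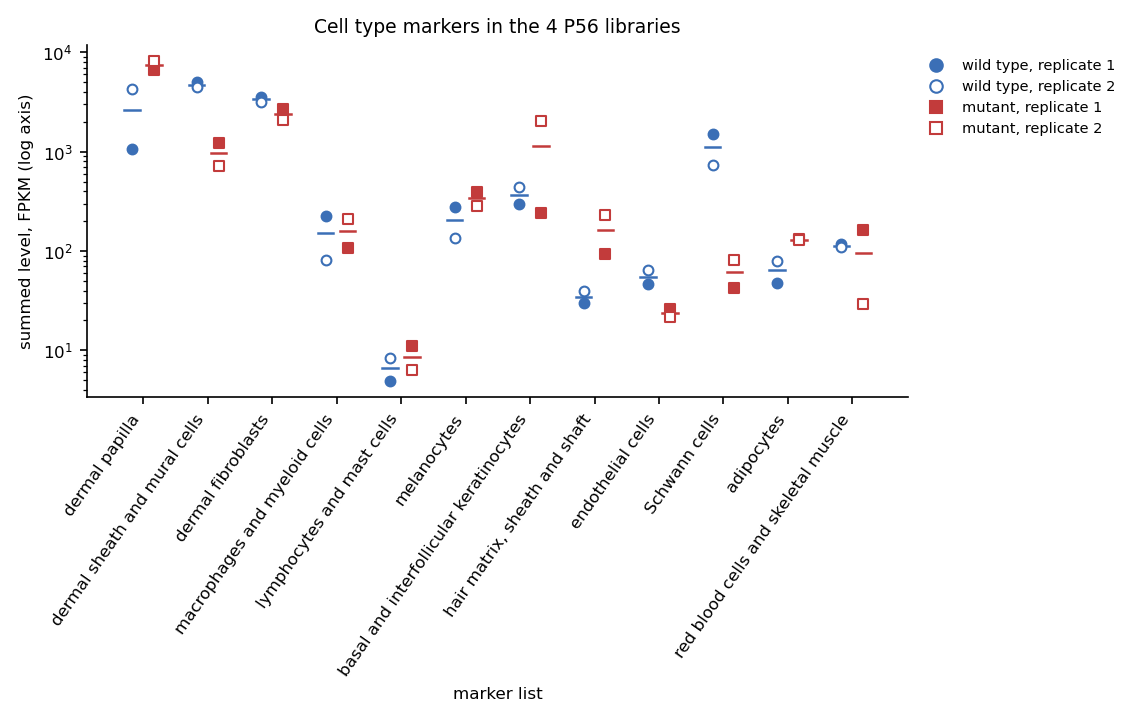
Summed level in FPKM, on a log axis, of 12 lists of cell type markers in the 4 P56 libraries. Circles are WT and squares mutant, filled for replicate 1 and open for replicate 2, and the short lines are group means. Schwann cell and mural markers were higher in both WT libraries, dermal papilla markers ranged from 1064 to 8102 FPKM, and keratinocyte markers reached 2046 FPKM in mutant replicate 2.

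The dermal papilla signature, a list of 40 genes known to mark papilla cells, was shifted toward higher levels in the mutant. Of its 39 members tested, 17 rose, none fell, and 22 did not pass. Their median log2 change was 1.5. The count was 14 without WT replicate 1, when 1 member fell, 30 without WT replicate 2, 6 without mutant replicate 2, and 6 in the average over ages. Of the 10 dermal papilla markers 4 rose, with 1 rise without mutant replicate 2 and 9 without WT replicate 2. The sums of these markers moved with genotype and between the WT libraries in the same direction, as did those of Schwann cell and mural markers in the other, and their part in the result was not tested.

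*Corin*, a membrane protease of the papilla that limits Agouti signalling to melanocytes (identifier ENSMUSG00000005220.10, chr5:72300025-72504473), stood at 1.3 and 6.86 FPKM in the WT libraries and at 129 and 108 FPKM in the mutant libraries. The groups were far apart and the change was among the largest rises (log2 change 4.81 ± 0.48 SE, adjusted p = 0.00033). *Cntn1*, a neural adhesion molecule in the signature, stood at 1.67 and 17.7 FPKM in WT and at 46.3 and 60.99 FPKM in mutant libraries (log2 change 2.94 ± 0.73, adjusted p = 0.025), with an adjusted p of 0.059 without mutant P30 replicate 1, 0.059 without mutant P30 replicate 2, 0.11 without mutant replicate 2 and 0.065 without WT replicate 1. Several classical papilla genes did not pass. *Alpl*, the alkaline phosphatase used to stain papillae, stood at 27.6 and 298 FPKM in WT and 243 and 228 FPKM in mutant libraries (adjusted p = 0.27), with WT replicate 2 above both mutant libraries. *Crabp1*, a retinoic acid binding protein, stood at 892 and 1761 FPKM in WT and 2190 and 3237 FPKM in mutant libraries (log2 change 1.09 ± 0.34, adjusted p = 0.056). *Sox18*, a transcription factor of the papilla and of endothelium, stood at 22.3 and 33.7 FPKM in WT and 42.6 and 70.8 FPKM in mutant libraries (adjusted p = 0.062), while at P30 it was higher in mutant cells by 3.42 on the log2 scale (adjusted p = 0.00075). For *Sox2*, which marks papillae of some hair types, the values were 4.64 and 3.36 FPKM in WT and 1.62 and 3.71 FPKM in mutant libraries, which overlapped.

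R-spondins, secreted proteins that amplify WNT signals by protecting Frizzled receptors, were higher in both mutant libraries than in either WT library. Over all genes tested, the groups did not overlap for 59.1%. *Rspo4* (ENSMUSG00000032852.3, chr2:151842927-151874668) stood at 7.56 and 63.5 FPKM in WT and 395 and 755 FPKM in mutant libraries, and rose by 4.54 ± 0.73 on the log2 scale (adjusted p = 0.0037). WT replicate 2 lay about as far above WT replicate 1 as below the mutant libraries. *Rspo3* stood at 28.4 and 101 FPKM in WT and 227 and 289.7 FPKM in mutant libraries (log2 change 2.23 ± 0.47, adjusted p = 0.012, 0.069 without mutant replicate 2). *Rspo2* stood at 1.45 and 41.7 FPKM in WT and 96.9 and 98.4 FPKM in mutant libraries (log2 change 3.27 ± 0.96, adjusted p = 0.046). *Rspo2* was the least firm of the 4, with an adjusted p of 0.09 without mutant P30 replicate 1, 0.09 without mutant P30 replicate 2, 0.094 without mutant replicate 1, 0.15 without mutant replicate 2, 0.063 without WT P30 replicate 1 and 0.063 without WT P30 replicate 2. *Rspo1* stood at 59.9 and 59.3 FPKM in WT and 93.3 and 205 FPKM in mutant libraries (log2 change 1.2 ± 0.35, adjusted p = 0.042), with an adjusted p of 0.078 without mutant P30 replicate 1, 0.078 without mutant P30 replicate 2, 0.23 without mutant replicate 2, 0.12 without WT replicate 1 and 0.09 without WT replicate 2. At P30, where WT follicles were in anagen, *Rspo4* differed by -2.8 (adjusted p = 0.061) and *Rspo3* by -0.89 (adjusted p = 0.33), so neither was called, and both leaned to lower values in mutant cells.

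Of 12 tested WNT ligands and R-spondins, 4 rose (the R-spondins) and 2 fell, with 1 rise and 3 falls without mutant replicate 2. *Wnt16*, a ligand of the non-canonical and canonical branches, fell from 30.2 and 35.2 FPKM in WT to 3.33 and 2.63 FPKM in mutant libraries (log2 change -3.08 ± 0.29, adjusted p = 0.00024). At P30 it had been higher in mutant cells by 1.83 (adjusted p = 0.0077). Among 13 WNT antagonists 3 rose and 2 fell, with 6 rises without WT replicate 2 and no fall without mutant replicate 2. *Sostdc1*, a secreted inhibitor of WNT and BMP signals, stood at 98.6 and 406 FPKM in WT and 878 and 1382 FPKM in mutant libraries (log2 change 2.45 ± 0.53, adjusted p = 0.014, 0.085 without mutant replicate 2). *Sfrp1* rose from 24.9 and 93.3 FPKM to 267 and 306 FPKM (log2 change 2.54 ± 0.48), and *Sfrp4* from 1.19 and 0.72 FPKM to 9.8 and 9.39 FPKM (log2 change 2.45 ± 0.37). Both are Frizzled-related decoys that bind WNT proteins outside the cell. *Wif1*, which encodes a different secreted protein that binds WNT proteins and is a strong papilla gene, stood at 51.6 and 1598 FPKM in WT and at 3270 and 3481 FPKM in mutant libraries. It did not pass (adjusted p = 0.063), with the 2 WT libraries far apart.

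Downstream, the WNT list showed little shift: of 14 targets and effectors 1 rose and 1 fell. *Wisp1* rose from 6.84 and 18.6 FPKM to 54.9 and 37.4 FPKM (log2 change 1.9 ± 0.38), and *Myc*, a growth regulator, fell from 214 and 212 FPKM to 50.5 and 30.3 FPKM (log2 change -2.41 ± 0.27, adjusted p = 0.00063). *Lef1*, the transcription factor that carries WNT signals to DNA, stood at 68.1 and 91.01 FPKM in WT and 78.7 and 115 FPKM in mutant libraries, with overlapping groups (adjusted p = 0.47). Among 14 receptors *Fzd4* rose from 1.32 and 1.01 FPKM to 5.67 and 2.75 FPKM (adjusted p = 0.037), with an adjusted p of 0.05 to 0.14 without each library other than mutant replicate 2, while *Fzd9* and *Ror1* fell by 1.48 ± 0.28 and 1.37 ± 0.26.

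**Figure D2:**
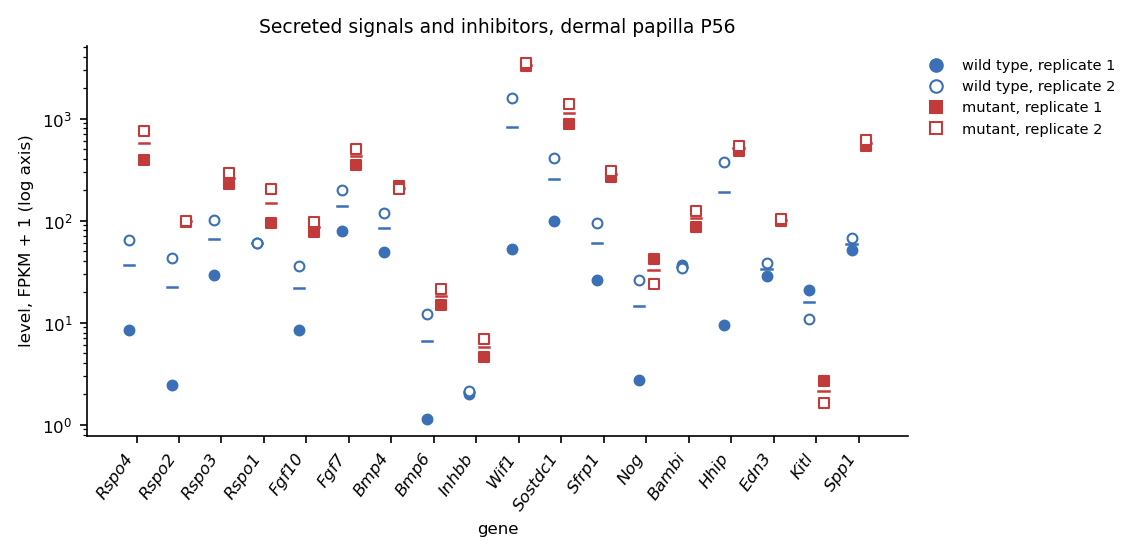
Level in FPKM + 1, on a log axis, of 18 secreted signals and inhibitors in the 4 P56 libraries. Circles are WT and squares mutant, filled for replicate 1 and open for replicate 2, and the short lines are group means. The R-spondins, *Fgf10*, *Fgf7* and *Spp1* were higher in both mutant libraries, *Kitl* was lower, and for *Rspo4*, *Rspo2*, *Wif1* and *Hhip* WT replicate 1 lay well under WT replicate 2.

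BMP signalling keeps follicle stem cells at rest, and the papilla supplies both ligands and inhibitors of it. Of 16 tested ligands of the BMP and TGF-beta family 5 rose and none fell, but none was called without WT replicate 1 or without mutant replicate 2, 2 were without mutant replicate 1 and 10 were without WT replicate 2. *Bmp4* stood at 47.8 and 118 FPKM in WT and 216 and 204 FPKM in mutant libraries (log2 change 1.47 ± 0.34, adjusted p = 0.02), with an adjusted p of 0.053 without mutant replicate 1, 0.073 without mutant replicate 2 and 0.054 without WT replicate 1. *Bmp6* stood at 0.15 and 11.1 FPKM in WT and 13.99 and 20.2 FPKM in mutant libraries and did not pass (adjusted p = 0.086). Of 8 tested targets of BMP signalling, 5 rose and none fell, and 5 or 6 did so in each of the fits without 1 P56 library. In the average over ages 1 of the 8 was called, and their median change was 0.42, against 1.45 at P56. *Id1*, a direct BMP target that blocks differentiation factors, stood at 83.7 and 49.6 FPKM in WT and 159 and 277 FPKM in mutant libraries (log2 change 1.69 ± 0.31, adjusted p = 0.007). *Msx1* rose from 3.22 and 3.36 FPKM to 16.1 and 15.2 FPKM (log2 change 1.96 ± 0.23), and *Msx2* from 4.85 and 9.69 FPKM to 26.96 and 26.2 FPKM (log2 change 1.8 ± 0.33), both homeobox genes induced by BMPs. At P30 the changes of *Id1*, *Msx1* and *Msx2* were -0.96, -0.21 and -0.75, none of them called.

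Inhibitors of the pathway moved in both directions, 3 higher and 2 lower of 16, with 1 higher without WT replicate 1 or mutant replicate 2 and 7 higher without WT replicate 2. *Bambi*, a decoy receptor, stood at 35.6 and 32.99 FPKM in WT and 85.3 and 123 FPKM in mutant libraries (log2 change 1.55 ± 0.27, adjusted p = 0.0052). *Grem1*, a secreted BMP antagonist of the dermal sheath, fell from 24.8 and 21.3 FPKM to 1.62 and 1.65 FPKM (log2 change -3.19 ± 0.25, adjusted p = 0.00012). *Ltbp4*, which stores latent TGF-beta in the matrix, fell by 1.69 ± 0.30 (adjusted p = 0.0065). *Nog*, the anagen-promoting BMP inhibitor noggin, stood at 1.76 and 25.4 FPKM in WT and 40.7 and 22.8 FPKM in mutant libraries, which overlapped (adjusted p = 0.13).

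FGFs of the papilla act on the overlying epithelium. *Fgf10* stood at 7.43 and 34.7 FPKM in WT and 77.03 and 95.99 FPKM in mutant libraries (log2 change 2.33 ± 0.52, adjusted p = 0.017, 0.085 without mutant replicate 2). *Fgf7* stood at 78.5 and 198 FPKM in WT and 351 and 504 FPKM in mutant libraries (log2 change 1.75 ± 0.37, adjusted p = 0.013, 0.081 without mutant replicate 2). *Fgf7* was also called in the average over ages, at 1.05 ± 0.26 (adjusted p = 0.037). Over the list, 3 of 8 tested FGF ligands rose and 1 fell, and limma called none without mutant replicate 2. Of 14 receptors and feedback genes 1 rose and 1 fell, *Spry1*, an inhibitor of FGF signals (29.2 and 23.4 FPKM in WT, 58.2 and 78.8 FPKM in mutant), and the factor *Etv1* (147 and 71.4 FPKM in WT, 15.5 and 19.8 FPKM in mutant). *Spry1* had been lower in mutant cells at P30, with a change of -2.07 (adjusted p = 0.0021), and its average over the ages was -0.37.

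Notch effectors of the Hey family rose: *Hey1* from 3.3 and 9.83 FPKM to 28.3 and 32.8 FPKM, *Hey2* from 1.54 and 6.93 FPKM to 36.8 and 41.5 FPKM and *Heyl* from 0.48 and 0.87 FPKM to 3.77 and 4.26 FPKM. These repressors are induced by Notch, and *Hey1* also by BMPs. Their log2 changes were 2.21 ± 0.37, 3.16 ± 0.42 and 1.59 ± 0.31, and all 3 were called in the average over ages, at 1.08, 1.92 and 1.5. The receptor *Notch1* fell from 17.9 and 12.9 FPKM to 3.68 and 3.74 FPKM (log2 change -1.78 ± 0.31). In all, 3 of 14 Notch genes rose and 2 fell. In the Hedgehog pathway none of 12 rose and 2 fell (16.7%, beside 7.91% of all genes tested). *Hhip*, the secreted Hedgehog inhibitor of the papilla, stood at 8.58 and 374 FPKM in WT and 477 and 540.3 FPKM in mutant libraries and did not pass (adjusted p = 0.11). *Dhh*, the Schwann cell Hedgehog ligand, fell from 113 and 49.5 FPKM to 1.31 and 0.63 FPKM (log2 change -5.29 ± 0.42, adjusted p = 0.00011).

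Of 12 tested genes of the IGF axis 2 rose and 2 fell. *Igfbp4* rose from 94.5 and 304 FPKM to 1258 and 888 FPKM (log2 change 2.63 ± 0.46, adjusted p = 0.0057) and *Igfbp2* from 42.1 and 71.7 FPKM to 385 and 199 FPKM (log2 change 2.31 ± 0.32, adjusted p = 0.0019). *Igfbp3* went the other way, from 895 and 748 FPKM down to 210.1 and 189 FPKM (log2 change -2.03 ± 0.28, adjusted p = 0.0017). These proteins bind IGFs and control their access to receptors. *Igf2r*, a receptor that clears IGF2, fell from 8.22 and 9.62 FPKM to 3.69 and 2.57 FPKM (log2 change -1.27 ± 0.26, adjusted p = 0.012, 0.075 without mutant replicate 2). *Igf1*, the growth factor itself, stood at 107 and 60.2 FPKM in WT and 46.5 and 60.5 FPKM in mutant libraries at P56 (adjusted p = 0.28), and was lower in mutant cells at P30, with a change of -1.75 (adjusted p = 0.026).

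*Spp1* encodes osteopontin, a secreted matrix phosphoprotein that binds CD44 and integrins (ENSMUSG00000029304.14, chr5:104435118-104441050). It stood at 50.3 and 66.8 FPKM in the WT libraries and at 539 and 611 FPKM in the mutant libraries, a mean of 58.5 ± 11.7 (SD, n = 2) against 575 ± 51.2 (SD, n = 2). Both mutant libraries lay far above both WT libraries. The log2 change was 3.28 ± 0.20 (adjusted p = 4.4e-05). At P30 the change was 2.7 ± 0.20 (adjusted p = 0.00034). In the average over ages, which has libraries of both sexes in each genotype, it was 2.99 ± 0.14 (adjusted p = 1.5e-05). The difference between the ages was 0.59 ± 0.28 and did not pass (adjusted p = 0.19).

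Of 9 tested genes of osteopontin and its receptors 2 rose, *Spp1* itself and *Itga9*, and 3 fell. The integrin subunits *Itga8* and *Itgav* were lower in mutant cells, *Itga8* at 25.9 and 30.9 FPKM in WT and 10.7 and 4.89 FPKM in mutant libraries and *Itgav* at 82.5 and 111 FPKM in WT against 48.8 and 26.02 FPKM in mutant libraries. Their log2 changes were -1.82 ± 0.35 and -1.4 ± 0.31, and for *Itgav* the adjusted p was 0.096 without mutant replicate 2 and 0.06 without WT replicate 2. *Itga9* stood at 2.86 and 12.8 FPKM in WT and 24.1 and 25.4 FPKM in mutant libraries (log2 change 1.81 ± 0.48, adjusted p = 0.032), with an adjusted p of 0.069 without mutant P30 replicate 1, 0.069 without mutant P30 replicate 2, 0.068 without mutant replicate 1, 0.12 without mutant replicate 2 and 0.095 without WT replicate 1. *Cd44*, the other main receptor, stood at 109 and 124 FPKM in WT and 75.1 and 68 FPKM in mutant libraries (log2 change -0.69 ± 0.18, adjusted p = 0.03), under the 2-fold limit.

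Matrix metalloproteinases gave some of the largest rises of the comparison. *Mmp13*, a collagenase (ENSMUSG00000050578.9, chr9:7272514-7283331), stood at 1.02 and 0.29 FPKM in WT and 64.6 and 58.4 FPKM in mutant libraries (log2 change 5.27 ± 0.32, adjusted p = 4.4e-05). *Mmp9*, a gelatinase (chr2:164940780-164955850), stood at 4.51 and 5.33 FPKM in WT and 85.6 and 82.1 FPKM in mutant libraries (log2 change 3.84 ± 0.23). *Mmp11*, a stromal protease, stood at 7.16 and 10.1 FPKM in WT and 129 and 101 FPKM in mutant libraries (log2 change 3.6 ± 0.24). In each of these the mutant libraries agreed closely and did not approach the WT ones. *Mmp13* and *Mmp9* were also called at P30, at 2.83 ± 0.32 and 4.37 ± 0.23, and in the average over ages, at 4.05 and 4.11. The rise of *Mmp13* was larger at P56 than at P30 by 2.44 ± 0.45 (adjusted p = 0.0081), and that of *Mmp11* by 2.69 ± 0.34 (adjusted p = 0.0015).

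*Mmp3*, *Mmp10* and *Mmp12*, chosen after their values were seen, are neighbours of *Mmp13* in the metalloproteinase cluster of chromosome 9. *Mmp3*, a stromelysin, stood at 18.1 and 17.1 FPKM in WT and 74.1 and 74.3 FPKM in mutant libraries (log2 change 2.02 ± 0.24, adjusted p = 0.00075). *Mmp10*, the second stromelysin, was listed at 0 in both WT libraries and at 2.85 and 6.76 FPKM in mutant libraries (adjusted p = 0.002). *Mmp12*, an elastase, stood at 0 and 0.26 FPKM in WT and 1.2 and 3.83 FPKM in mutant libraries (adjusted p = 0.023), with an adjusted p of 0.055 without mutant P30 replicate 1, 0.055 without mutant P30 replicate 2, 0.11 without mutant replicate 2 and 0.092 without WT replicate 1. At P30 the change of *Mmp3* was -1.0 ± 0.24 (adjusted p = 0.045), short of the 2-fold limit.

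The sequences before the starts of these 4 genes are shown because the genes are neighbours and rose in the same libraries, and that of *Spp1* is shown beside them. Each line gives the 100 bases before a transcription start from RefSeq, on the plus strand of GRCm38.p6, with the letters TATAAA (the TATA box) and TGANTCA (the letters of an AP-1 site) in capitals where they occur, both strands searched. The matches shown do not overlap each other.
Mmp13, chr9:7272414-7272513: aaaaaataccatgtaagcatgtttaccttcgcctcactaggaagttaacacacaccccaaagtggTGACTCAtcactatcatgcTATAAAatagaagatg
Mmp3, chr9:7445722-7445821: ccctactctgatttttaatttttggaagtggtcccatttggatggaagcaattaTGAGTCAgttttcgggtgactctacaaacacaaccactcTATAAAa
Mmp10, chr9:7502242-7502341: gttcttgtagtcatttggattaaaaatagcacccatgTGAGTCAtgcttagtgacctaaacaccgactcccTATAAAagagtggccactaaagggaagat
Mmp12 first start, chr9:7344297-7344396: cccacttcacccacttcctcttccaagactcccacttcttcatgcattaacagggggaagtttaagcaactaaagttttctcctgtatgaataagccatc
Mmp12 second start, chr9:7347274-7347373: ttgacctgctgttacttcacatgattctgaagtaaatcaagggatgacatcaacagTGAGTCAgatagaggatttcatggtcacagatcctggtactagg
Spp1, chr5:104435011-104435110: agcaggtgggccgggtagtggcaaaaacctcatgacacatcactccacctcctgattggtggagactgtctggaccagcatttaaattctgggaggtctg
In *Mmp13* the TGANTCA match began 35 bases before the start and the TATAAA match 16 bases before it. In *Mmp3* they began 46 and 7 bases before the start, and in *Mmp10* 63 and 29 bases before it. *Mmp12* has 2 starts in the table, and the window of its first start holds neither motif. Its second start has TGANTCA at 44 bases before the start and TATAAA only after it, outside the bases shown. *Spp1*, at its first start, has neither in the stretch shown and 1 TATAAA at 211 bases before the start, and the window of its second start, not shown, holds neither. Windows of 250 bases before to 50 after the start were found for 9137 of the 12090 genes tested, 11758 windows in all. TATAAA was in 7.12% of these, in 12.8% of the windows of genes that rose and in 8.25% of those that fell. TGANTCA was in 5.24%, 5.84% and 6.72%. Both motifs were in 61 windows (0.519%) of 59 genes, of which 11 rose and 5 fell. Of all 9137 genes with a window, 446 rose and 707 fell. The 11 include the 4 metalloproteinase genes shown here, which were picked because they rose, so their count is not a test. These matches are descriptions of letters and say nothing of a factor.

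Of 39 proteases and their inhibitors 13 rose and 6 fell. *Serpine2*, the protease inhibitor nexin of the papilla, stood at 272 and 1275 FPKM in WT and 3050 and 4011 FPKM in mutant libraries, among the highest levels of any named gene (log2 change 2.57 ± 0.59, adjusted p = 0.018, 0.089 without mutant replicate 2).

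The matrix itself changed in part. Among 37 elastic fibre and matricellular genes 8 rose and 4 fell, with 4 rises without WT replicate 1, 5 without mutant replicate 1 and 14 without WT replicate 2. *Mgp*, matrix Gla protein, an inhibitor of calcification, stood at 99.4 and 99.3 FPKM in WT and 1303 and 916 FPKM in mutant libraries (log2 change 3.45 ± 0.20, adjusted p = 4.4e-05). *Thbs4*, a thrombospondin, rose from 1.01 and 3.12 FPKM to 90.9 and 29.7 FPKM (log2 change 4.21 ± 0.49), and *Postn*, periostin, from 101 and 112 FPKM to 478 and 365 FPKM (log2 change 1.96 ± 0.21). *Postn* was called at P30 as well, at 1.08 ± 0.21, while *Mgp* was lower there, at -1.24 ± 0.20 (adjusted p = 0.01). *Col10a1*, a short-chain collagen best known from cartilage, rose from 0.62 and 0.45 FPKM to 23.7 and 20.6 FPKM at P56 (log2 change 3.91 ± 0.28) and was called at P30, at 2.22. *Omd*, the small proteoglycan osteomodulin, rose from 6.83 and 11.2 FPKM to 92.7 and 56.6 FPKM. Of 19 fibrillar and associated collagens 2 rose and 2 fell, and none was called without WT replicate 1.

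Basement membrane genes tended the other way, with 7 of 25 lower and 1 higher. *Lama5*, a laminin chain, fell from 7.47 and 11.1 FPKM to 0.02 and 0.12 FPKM (log2 change -3.24 ± 0.34, adjusted p = 0.00042). *Npnt*, nephronectin, a ligand of the integrin with the *Itga8* subunit, fell from 52.8 and 47.3 FPKM to 5.62 and 2.73 FPKM (log2 change -3.36 ± 0.33). *Frem2* and *Fras1*, which form an anchoring complex beneath epithelia, fell by 2.93 ± 0.38 and 2.59 ± 0.42. Without WT replicate 1 or without mutant replicate 2, 4 of the list were called lower, and the part of the mural and Schwann cell marker sums, lower in the same libraries, was not tested. Of 27 proteoglycan and hyaluronan genes 4 rose and 5 fell. Among those that fell were *Sdc4*, syndecan 4, at 653 and 732 FPKM in WT and 198 and 147 FPKM in mutant libraries, and *Has1*, a hyaluronan synthase, at 333 and 243 FPKM against 108 and 39.6 FPKM. For *Has1* the adjusted p was 0.053 without WT replicate 1.

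**Figure D3:**
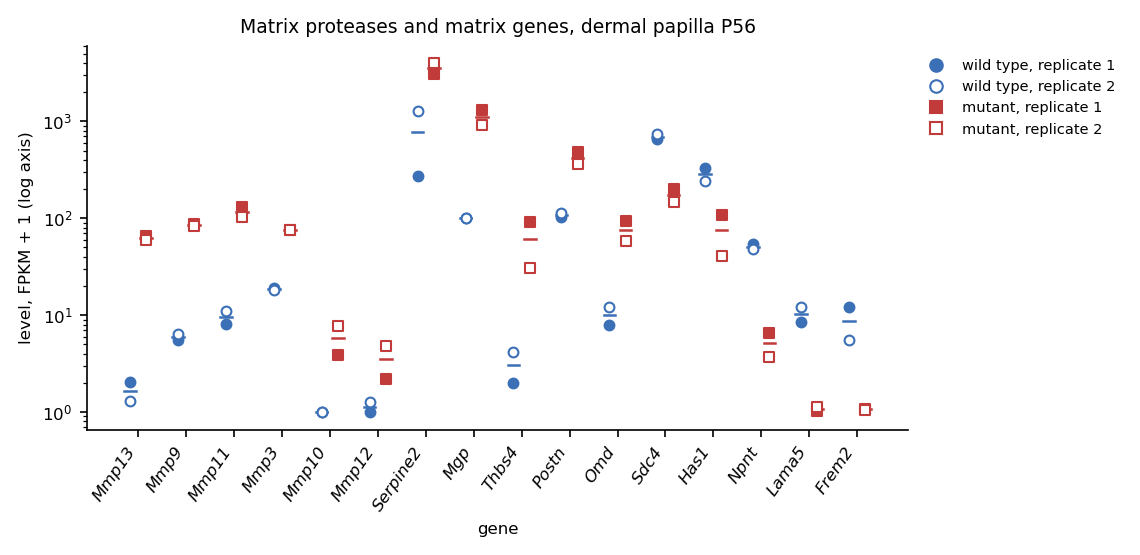
Level in FPKM + 1, on a log axis, of 16 matrix proteases and matrix genes in the 4 P56 libraries. Circles are WT and squares mutant, filled for replicate 1 and open for replicate 2, and the short lines are group means. *Mmp13*, *Mmp9*, *Mmp11* and *Mgp* were separated with little spread within groups, *Serpine2* varied from 272 to 1275 FPKM in WT, and *Npnt*, *Lama5* and *Frem2* were lower in both mutant libraries.

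Nevus melanocytes are growth-arrested cells, and secreted factors that senescent cells are known for (SASP factors) were listed to describe such signals in the papilla. Of 45 tested, 13 rose and 2 fell (33.3% called, beside 13.2% of all genes tested), with a median log2 change of 0.51. Without mutant replicate 1, 8 fell. The largest changes were those of *Mmp13*, *Mmp9*, *Spp1* and *Igfbp4*, given above. Cell cycle inhibitors split. *Cdkn2b*, which encodes p15, rose from 4.11 and 2.29 FPKM to 22.9 and 11.02 FPKM (log2 change 2.05 ± 0.37, adjusted p = 0.0068). *Cdkn1c*, which encodes p57, rose from 24.9 and 27.9 FPKM to 85.8 and 70.7 FPKM (log2 change 1.53 ± 0.19, adjusted p = 0.0011). *Cdkn1a*, which encodes p21, fell from 1323 and 869.6 FPKM to 276 and 179 FPKM (log2 change -2.27 ± 0.30, adjusted p = 0.0014). *Cdkn2a* stood at 0.27 and 0 FPKM in WT and at 0.18 and 0 FPKM in mutant libraries, and was under the filter. So was *Mki67*, the proliferation marker, at 1.41 and 0.89 FPKM in WT and 0.34 and 0.32 FPKM in mutant libraries. Of 25 genes of mitosis limma called none at P56, and 0 had an unadjusted p under 0.05, beside 4063 of all 12090 genes tested.

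The papilla also signals to the pigment cells of the hair bulb. Of 9 tested signals to melanocytes 4 rose and 2 fell, with 2 rises without WT replicate 1 or mutant replicate 2. *Edn3*, endothelin 3, a growth factor for melanocytes, stood at 27.9 and 37.4 FPKM in WT and 99.1 and 102 FPKM in mutant libraries (log2 change 1.61 ± 0.20, adjusted p = 0.0011). *Kitl*, the ligand of the melanocyte receptor KIT, went down from 19.99 and 9.74 FPKM to 1.69 and 0.62 FPKM (log2 change -2.85 ± 0.38, adjusted p = 0.0014). It was also called lower in the average over ages, at -1.18, while at P30 its change was 0.48, not called. *Asip* was not analysed here.

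Genes of melanocytes themselves were measured in these libraries. *Dct* stood at 0.22 and 2.75 FPKM in WT and 32.6 and 53.1 FPKM in mutant libraries (log2 change 4.32 ± 0.56, adjusted p = 0.0012), and *Mlana* at 0.43 and 0.51 FPKM in WT against 19.7 and 32.4 FPKM in mutant libraries (log2 change 4.16 ± 0.39, adjusted p = 0.00024). *Tyr* was listed at 0 in both WT libraries and at 3.2 and 7.11 FPKM in the mutant libraries (adjusted p = 0.0014). These encode a pigment enzyme, a melanosome protein and tyrosinase. Not every gene of the list followed: 6 of 11 rose and 2 fell. *Mlana* and *Tyr* passed the filter only through the mutant libraries and could be called only as rises. Listed genes under the filter, such as *Oca2*, *Trpm1* and *Kit*, are not among the 11. *Tyrp1*, chosen after its values were seen, stood at 18.5 and 23.6 FPKM in WT and 3.19 and 11.2 FPKM in mutant libraries (log2 change -1.62 ± 0.46, adjusted p = 0.04), with an adjusted p of 0.053 to 0.14 without each library other than mutant replicate 2. *Sox10*, a factor shared by melanocytes and Schwann cells, fell with the Schwann cell genes, from 215 and 55.2 FPKM to 3.86 and 6.32 FPKM (log2 change -4.21 ± 0.55). *Nras* stood at 51.1 and 41.9 FPKM in WT and 25.2 and 23.6 FPKM in mutant libraries (log2 change -0.90 ± 0.20, adjusted p = 0.018), under the 2-fold limit, and the sources used here do not say whether transgene reads were counted under it.

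Hox genes, which hold positional identity in skin fibroblasts, were higher as a group. All 20 tested had a positive change, under each of the 3 other scalings as well, against 49.3% of all genes tested. Of these 10 rose and none fell. *Hoxa9* stood at 1.55 and 1.47 FPKM in WT and 18.1 and 20.03 FPKM in mutant libraries (log2 change 3.0 ± 0.22, adjusted p = 7.9e-05), *Hoxb6* at 2.78 and 2.07 FPKM against 13.9 and 16.2 FPKM, and *Hoxc10* at 5.25 and 3.47 FPKM against 21.6 and 23.3 FPKM. *Hoxa10* rose by 2.13 ± 0.32. Without WT replicate 1 and without mutant replicate 2, 7 were called, and 2 were called in the average over ages, *Hoxa9* at 1.25 and *Hoxc10* at 1.02. At P30 the changes of *Hoxa9*, *Hoxb6* and *Hoxc10* were -0.50, -0.82 and -0.11, none called. Of 27 transcription factors of HF mesenchyme 7 rose and 3 fell (4 and 0 without WT replicate 1 or mutant replicate 2), among them *Foxp1*, which fell from 57.9 and 32.2 FPKM to 14.2 and 9.09 FPKM, with an adjusted p of 0.11 without mutant replicate 2 and 0.11 without WT replicate 1.

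Retinoid genes had 2 rises among 12 tested, 5 without WT replicate 2, and no fall. *Aldh1a1*, an enzyme that makes retinoic acid, stood at 0.87 and 3.9 FPKM in WT and 30.7 and 46.4 FPKM in mutant libraries (log2 change 3.68 ± 0.43, adjusted p = 0.00072), and at P30 it was lower in mutant cells, with a change of -2.65 (adjusted p = 0.0095). Others among the largest rises lay outside the lists given above. *Inmt*, a methyltransferase, rose from 0.65 and 0.39 FPKM to 21.01 and 20.4 FPKM. *Plac8* rose from 0.35 and 0.71 FPKM to 18.2 and 26.4 FPKM. It is a dermal fibroblast marker, and of 15 such markers tested 3 rose and 1 fell. Their sums were 3553 and 3186 FPKM in WT and 2711 and 2078 FPKM in mutant libraries. *Nrg2*, a neuregulin, rose from 2.03 and 2.39 FPKM to 25.8 and 139 FPKM. In its list of PDGF, HGF, VEGF and neuregulin genes 1 of 19 rose and 4 fell. The keratins named next, *Krt6a*, *Krt71* and *Krt75*, passed the filter only through the mutant libraries and could be called only as rises. *Krt6a*, a keratin of the companion layer of the follicle, stood at 0.61 and 0.21 FPKM in WT and 7.76 and 65.2 FPKM in mutant libraries, the higher value in the library with the most keratinocyte marker signal. Inner root sheath and companion keratins were likewise uneven: 5 of 11 hair matrix, sheath and shaft markers rose, with *Krt71* at 0.03 and 0 FPKM in WT and 3.14 and 32.7 FPKM in mutant libraries (adjusted p = 0.017, 0.06 without WT replicate 1) and *Krt75* at 0 and 0.04 FPKM against 3.41 and 12.5 FPKM. Without WT replicate 1 there were 3 such rises.

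**Figure D4:**
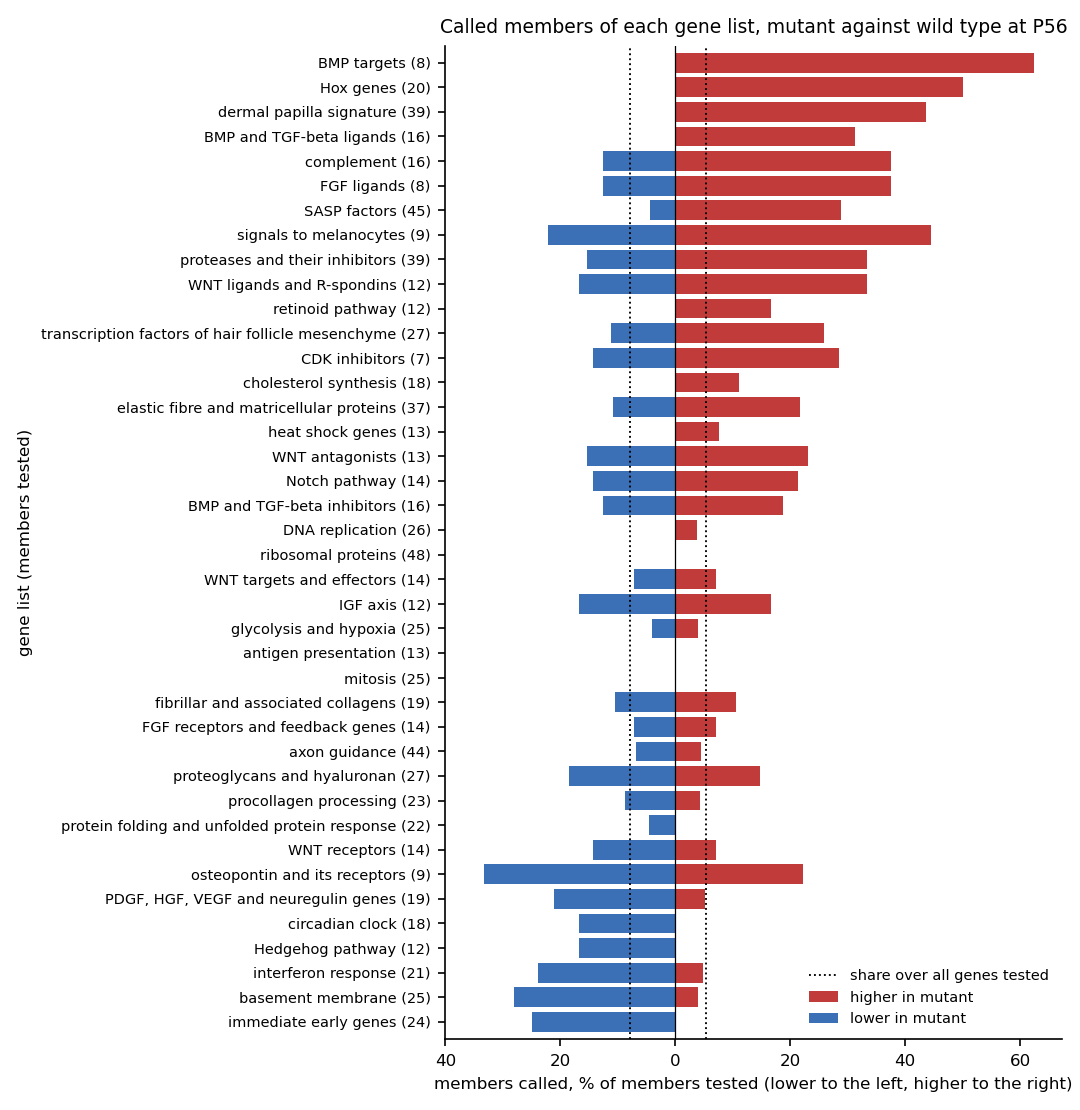
Share of tested members that were called higher (right, red) or lower (left, blue) in mutant papilla libraries at P56, for each list other than the cell type markers, with the number tested in brackets. Dotted lines mark the share over all genes tested, 5.27% higher and 7.91% lower. BMP targets, Hox genes and the dermal papilla signature had only higher calls, and immediate early genes only lower ones.

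The largest falls were mostly of genes of nerve and muscle. *Mbp*, myelin basic protein, stood at 225 and 189 FPKM in WT and 1.1 and 1.79 FPKM in mutant libraries (log2 change -6.42 ± 0.27, adjusted p = 9.7e-06), and *Ngfr* fell from 116 and 42.6 FPKM to 1.57 and 1.66 FPKM. Of 9 Schwann cell markers 8 fell, and of 13 dermal sheath and mural markers 9 fell, with none higher in either list, and these genes make up the marker sums given above. *Myh11*, smooth muscle myosin, fell from 249 and 221 FPKM to 3.74 and 3.89 FPKM (log2 change -5.61 ± 0.67, adjusted p = 0.00079). *Des*, desmin, fell from 639 and 542 FPKM to 11.2 and 15.3 FPKM, and *Cnn1*, calponin, from 291 and 288 FPKM to 7.82 and 8.17 FPKM. Several others of the 12 largest falls followed the same order of libraries, WT replicate 1 highest: *Gatm* (217 and 122 FPKM in WT), *Egfl8* (282 and 122), *Kcna1* (77.1 and 40.9), *Entpd3* (110.4 and 35.2) and *Cmtm5* (133 and 59.95), with 0.59 to 2.69 FPKM in the mutant libraries. *Dbh*, the enzyme that makes noradrenaline, stood at 27.5 and 36.8 FPKM in WT and 0.17 and 0 FPKM in mutant libraries. At P30 none of *Mbp*, *Myh11*, *Des* and *Cnn1* was called, with changes of 0.47, -0.37, -0.26 and -0.38. In the average over ages all 4 were called lower, at -2.98, -2.99, -2.82 and -2.69.

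Immediate early genes, which cells switch on within minutes of a stimulus, were lower at P56. All 24 tested had a negative change, also under the 3 other scalings, and 6 fell. The negative changes were 17 of 24 without WT replicate 1, 22 without mutant replicate 2 and 12 in the average over ages, in which 1 was called lower. *Atf3* fell from 881 and 554 FPKM to 156 and 129.9 FPKM (log2 change -2.29 ± 0.24, adjusted p = 0.00044), *Fosl1* from 97.1 and 139 FPKM to 19.3 and 29.7 FPKM and *Nr4a2* from 120.5 and 62.5 FPKM to 24.2 and 12.3 FPKM. *Egr3* fell from 4.25 and 2.68 FPKM to 0.53 and 0.69 FPKM. The 6 called were 5 without WT replicate 1 or mutant replicate 2, 9 without mutant replicate 1 and 10 without WT replicate 2. The clock genes *Nr1d1* and *Nr1d2*, nuclear receptors of the circadian repressor loop, were lower too. *Nr1d1* fell from 274 and 165 FPKM to 74.1 and 33.8 FPKM and *Nr1d2* from 43.4 and 45.8 FPKM to 20.96 and 9.33 FPKM. In all, 3 of 18 clock genes fell (16.7%, beside 7.91% of all genes tested), and 15 were not called. Of 21 interferon response genes 1 rose and 5 fell, with 3 lower without mutant replicate 2, 1 without WT replicate 1 and 8 without WT replicate 2. *Ifit3* fell from 20.1 and 14.4 FPKM to 3.34 and 4.33 FPKM, while *Cxcl9*, an interferon-induced chemokine, rose from 1.37 and 1.77 FPKM to 11.6 and 7.22 FPKM.

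At P30, where the mutant and WT libraries are different ones, fewer genes were called, 144 higher and 409 lower in mutant cells (4.57%, with 1.19% higher and 3.38% lower), a split that became 176 and 271 with median ratio scaling. The P30 count was 309 and 177 without WT P30 replicates 1 and 2 and 58 and 121 without mutant P30 replicates 1 and 2. Of the 637 genes higher at P56, 19 were also called higher at P30 (2.98% of the P56 list, 13.2% of the P30 list), and 112 were called lower there (17.6% of the P56 list, 27.4% of the P30 list). Of the 956 genes lower at P56, 28 were also lower at P30 (2.93% of the P56 list, 6.85% of the P30 list) and 15 were higher (1.57% and 10.4%). The difference between the ages itself was called for 1621 genes (13.4%), 955 more positive (7.90%) and 666 more negative (5.51%) at P56, a split that became 798 and 818 with median ratio scaling, 804 and 812 with TMM and 832 and 801 with quantile normalization. Since sex was the opposite at the 2 ages, an effect of sex and a difference between ages cannot be told apart in these counts. The count was 799 without WT P30 replicate 2 and 519 and 657 without mutant P30 replicates 1 and 2. The change of *Corin* was -2.33 ± 0.48 at P30 and 4.81 ± 0.48 at P56, a difference of 7.14 ± 0.68 (adjusted p = 0.00039). That of *Rspo4* was -2.8 ± 0.73 and 4.54 ± 0.73, a difference of 7.34 ± 1.04 (adjusted p = 0.0026). In the average over ages *Corin* was at 1.24 and *Rspo4* at 0.87, neither called. For *Spp1*, *Mmp9* and *Postn* the difference between ages did not pass, with changes of 2.7, 4.37 and 1.08 at P30 and of 3.28, 3.84 and 1.96 at P56. In the average over ages, 6 of the 39 dermal papilla signature genes, 8 of 39 proteases and their inhibitors, 6 of 37 elastic fibre and matricellular genes and 8 of 45 SASP factors were called higher, as were 1 of 8 BMP targets and 1 of 12 WNT ligands and R-spondins, beside 1.22% of all genes tested.

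**Figure D5:**
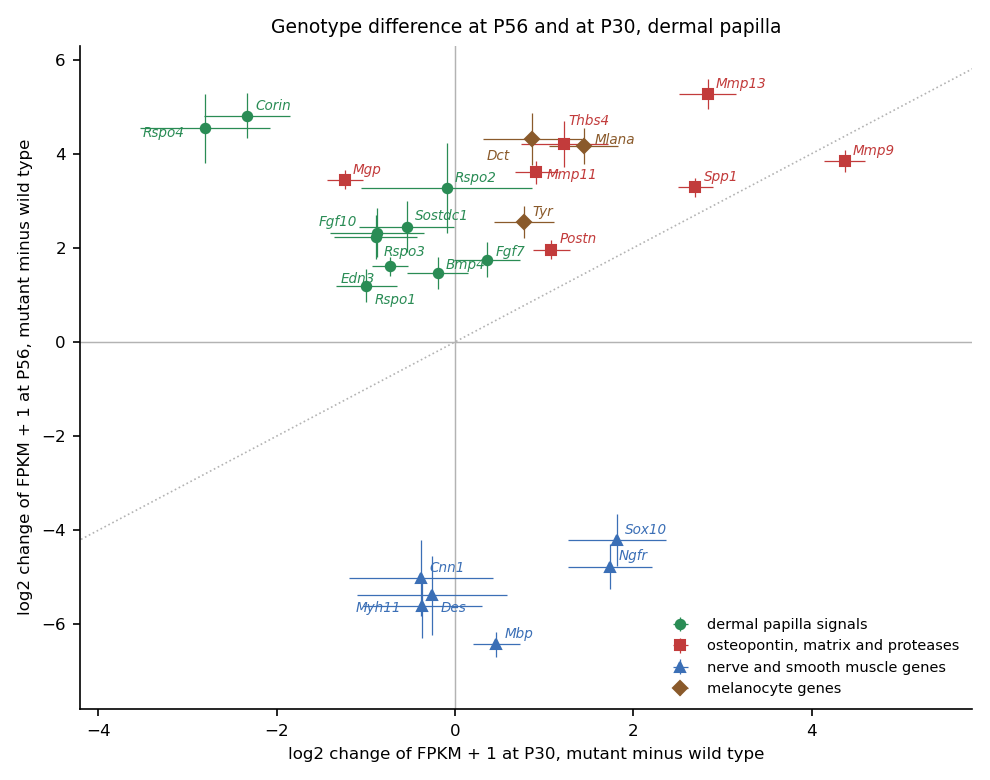
Mutant minus WT change of 26 genes at P56 (vertical) against P30 (horizontal), both as log2 of FPKM + 1, with standard errors. Markers are coloured by group, and the dotted line marks equal change. *Spp1*, *Mmp9* and *Postn* lay above 0 at both ages, *Corin* and *Rspo4* were lower at P30 and higher at P56, and the nerve and smooth muscle genes were lower at P56 with changes of -0.38 to 1.81 at P30.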

How the data were processed

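Bulk RNA from dermal papilla cells was profiled in 8 libraries, 2 for each genotype at P30 and P56. Per the study's methods and the labels, the authors aligned reads to GRCm38 (mm10) using STAR 2.4.2, computed gene levels with RSEM and kept libraries that passed limits on unique reads. They deposited FPKM values, and no scaling between libraries is stated. The study's own test used edgeR on counts, which the table does not hold. In the table of 21417 genes, 25 symbols that had become dates were restored from their gene identifiers, and positions were taken from GENCODE vM21 on GRCm38 for 21301 genes.

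Protein-coding genes with 1 FPKM or more in at least 2 of the 4 P56 libraries were tested, with chromosomes X and Y and genes with no chromosome left out. The 4 groups of all 8 libraries each had a mean in a linear model of log2(FPKM + 1), with the variance trended on the mean, in limma 3.58.1 (R 4.3.3). P56 was compared with two-sided moderated tests, Benjamini-Hochberg adjusted over 12090 genes. P30, the interaction of genotype and age and the average over ages came from the same fit. On simulated data made from this comparison with 12090 genes, the fit recovered 9 of 50 changes of 2-fold, 43 of 50 of 4-fold, 50 of 50 of 8-fold and 49 of 50 of 16-fold, with 7 false calls. The simulated noise was independent between genes, and changes were placed only in genes above a minimum level. Shifts shared by many genes of 1 library, as seen in WT replicate 1 and mutant replicate 2, were not simulated. The false calls therefore do not measure errors from such shifts. Precision is further limited by 2 libraries a group, and the depth of each library is not in the table.

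There were 52 gene lists holding 1029 genes, of which 847 were tested and 217 called (117 higher and 100 lower). Members, lists and the rule for named genes were chosen with earlier results of these data known. The rule named the 12 largest rises and the 12 largest falls (mean of the higher group 5 FPKM or more, libraries not overlapping), up to 4 called members of each list with the largest change or, failing any call, the 2 most highly expressed members, and 30 genes whatever their values. Not all of these are described, and 4 are not reported here. Alternatives were other pseudocounts (0.1 and 0.5), no filter or a mean of 5 FPKM, scaling by median ratios, TMM or quantiles, the P56 libraries alone, no variance trend, a robust prior, a replicate block, lncRNAs or sex chromosomes added, treat, each library left out and the average over ages. Promoter windows are from RefSeq (GRCm38.p6). The unit, FPKM, keeps no read counts, so no interval from counts was given.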

Additional observations from a re-analysis of the deposited data

Results flagged for a closer look

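The genotype effect differed between P56 and P30 for 1621 genes by the interaction of genotype and age in limma (955 more positive and 666 more negative at P56). The values below are the P56 effect minus the P30 effect on the log2 scale, each past an adjusted p of 0.05 and 2-fold. Sex was the opposite at the 2 ages, so an effect of sex and a difference between ages cannot be told apart for any of them.

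Several papilla signals and inhibitors had more positive effects at P56, with *Rspo4* (7.34), *Corin* (7.14), *Sfrp1* (4.2), *Rspo3* (3.12), *Fgf10* (3.2), *Sostdc1* (3.0), *Edn3* (2.34), *Sfrp4* (2.29) and *Rspo1* (2.19) among them. The FGF feedback gene *Spry1* (3.42) and the signature gene *Cntn1* (5.22) went the same way. Ligands with more negative effects at P56 were *Wnt16* (-4.91), *Kitl* (-3.33), *Hbegf* (-2.7) and *Pdgfa* (-1.82), and on the same side were *Grem1* (-3.23) and *Ltbp4* (-1.7), from the list of BMP and TGF-beta inhibitors. Targets and regulators of BMP, WNT and Notch signals included *Id1* (2.65), *Bambi* (2.62), *Msx2* (2.55), *Msx1* (2.17), *Hey2* (2.47), *Hey1* (2.25), *Fzd4* (2.07), *Wisp1* (1.95) and *Lef1* (1.59) on the positive side and *Myc* (-2.25), *Fzd9* (-1.65) and *Notch1* (-1.58) on the negative side. *Etv1* (-2.29), of the FGF feedback list, was negative too.

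Among proteases and matrix genes the difference was positive for *Mgp* (4.68), *Omd* (4.29), *Serpine2* (3.61), *Mmp3* (3.02), *Thbs4* (2.98), *Itga9* (2.9), *Mmp11* (2.69), *Mmp13* (2.44), *Mmp10* (2.03) and *Col10a1* (1.69), and negative for *Fras1* (-4.06), *Lama5* (-3.69), *Frem2* (-3.42), *Npnt* (-2.65) and *Sdc4* (-1.35). Positional and other regulators with a positive difference were *Hoxa9* (3.49), *Hoxb6* (3.05), *Hoxa10* (2.63) and *Hoxc10* (2.25). *Sox18* (-2.44) was higher in mutant cells at P30. Retinoid and further genes were *Aldh1a1* (6.33), *Plac8* (4.39), *Nrg2* (4.36) and *Inmt* (3.79), and the follicle keratins *Krt71* (5.32) and *Krt75* (3.29) and the melanocyte genes *Dct* (3.45), *Mlana* (2.71) and *Tyr* (1.77) were positive too.

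Nerve and smooth muscle genes had negative differences, *Gatm* (-7.55), *Mbp* (-6.89), *Dhh* (-6.74), *Ngfr* (-6.51), *Egfl8* (-6.09), *Sox10* (-6.02), *Cmtm5* (-5.94), *Entpd3* (-5.8), *Dbh* (-5.52) and *Kcna1* (-5.52) for the genes that followed the Schwann cell markers or lay beside them among the largest falls, and *Myh11* (-5.25), *Des* (-5.13) and *Cnn1* (-4.63) for smooth muscle. Immediate early and clock genes followed with *Atf3* (-2.95), *Nr4a2* (-2.65), *Egr3* (-2.32), *Nr1d1* (-2.22), *Nr1d2* (-2.17) and *Fosl1* (-1.65). Cell cycle inhibitors, binding proteins and interferon genes were split, with *Cdkn2b* (3.51), *Cdkn1c* (1.67) and *Cxcl9* (1.8) positive and *Igfbp3* (-2.67), *Cdkn1a* (-1.54) and *Ifit3* (-1.42) negative. Further positive differences were those of *S100a8* (5.58), *Lpl* (4.26), *C7* (3.89), *Tm7sf2* (2.63) and *B2m* (1.47), and further negative ones those of *Sema3b* (-4.68), *Cd59a* (-2.9) and *Sema3e* (-2.4).

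Genes of the Y chromosome, left out of the comparison, were under 0.1 FPKM in both WT P56 libraries. Their means in the mutant P56 libraries were 42.8 FPKM for *Ddx3y*, 43.4 FPKM for *Eif2s3y*, 9.25 FPKM for *Uty* and 5.02 FPKM for *Kdm5d*.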

How the results depend on the processing

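The count of 1593 genes was 787 in a fit of the P56 libraries alone, 517 with limma's treat against 1.5-fold, 548 for the average over ages, and 934 to 2013 when each of the 8 libraries was left out in turn, with 947 without WT P56 replicate 1 and 934 without mutant P56 replicate 2. The interaction count of 1621 was 619 with treat and 519 to 2017 without 1 library, and the P30 count of 553 was 142 with treat and 58 to 740 without 1 library. The 217 called members of the lists became 134 in the P56 libraries alone and 98 with treat. The other settings kept these counts within 1.5 times. Other pseudocounts, filters, scalings, added lncRNAs or sex chromosomes and another prior variance were among them. Scaling moved the P30 split from 144 higher and 409 lower to 176 and 271 with median ratios, 162 and 271 with TMM and 181 and 277 with quantiles. Where a library was left out, the lone sample of its group was assumed to vary like the other groups.

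With a replicate block the P56 count was 1563 (631 higher and 932 lower). The labels give the same replicate numbers to every group. Across genes, deviations of same-numbered libraries correlated at -0.10 to 0.11. Such values cannot show whether same-numbered libraries shared an animal or a batch.

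Of 149 called named genes, 86 were called in every one of 22 alternatives in which they were tested, and 100 in all 8 fits without 1 library. Of the calls lost, 25 were lost only without WT P56 replicate 1, mutant P56 replicate 2 or both. No called gene changed sign in these 22. Under the average over ages, added after the data were seen, 72 of the 149 calls did not pass and 5 called genes had the opposite sign: *Crym* (-1.21), *Spry1* (-0.37), *Pparg* (-0.32), *Matn4* (-0.19) and *Inhbb* (-0.022). The cause of these changes was not tested. *Pparg* was called in 4 of the 8 fits without 1 library and *Inhbb* in 6. The table gives no depth per library, so counting error could not be separated from the spread between libraries.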

Other observations

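Ribosomal protein genes were shifted without a call. Of 48 tested, limma called none at 2-fold, 39 had an unadjusted p under 0.05, and 47 had a positive change, with a median of 0.65 on the log2 scale. *Rps27* stood at 1675 and 1799 FPKM in WT and 2495 and 2770 FPKM in mutant libraries, and *Rplp1* at 1466 and 1006 against 1838 and 2563 FPKM, so the groups did not overlap, as was the case for 59.1% of all genes tested. In the fit without mutant replicate 1, 14 of the list were called, and 5 in that without WT replicate 1.

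Complement genes had 6 rises and 2 falls among 16. *C7*, a part of the membrane attack complex, stood at 0.03 and 0 FPKM in WT and 16.9 and 9.89 FPKM in mutant libraries (log2 change 3.78 ± 0.31, adjusted p = 0.00013). *Cd59a*, which protects cells from that complex, fell from 419.9 and 270.2 FPKM to 18.7 and 36.1 FPKM (log2 change -3.64 ± 0.33). The list had 1 rise and 1 fall without WT replicate 1, and 2 and 1 without mutant replicate 2. In the average over ages it had 1 rise and 1 fall, 10 of 16 changes were negative, and the median was -0.13 against 1.09 at P56. Among markers of adipocytes, *Lpl*, lipoprotein lipase, rose from 18.6 and 12.4 FPKM to 90.6 and 62.98 FPKM, while at P30 it had been lower in mutant cells, with a change of -2.02 (adjusted p = 0.011). *S100a8*, an alarmin of neutrophils and stressed epithelium, stood at 1.87 and 9.16 FPKM in WT and 51.6 and 63.7 FPKM in mutant libraries (log2 change 3.43 ± 0.52, adjusted p = 0.0027), the only called gene of 13 tested macrophage and myeloid markers.

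Axon guidance genes had 2 rises and 3 falls among 44, with 8 and 7 without WT replicate 2 and 0 and 2 without WT replicate 1. The share called was 11.4%, beside 13.2% of all genes tested, so the list as a whole did not stand out. The falls were of semaphorins. *Sema3b* stood at 518 and 203 FPKM in WT and 16.3 and 17.9 FPKM in mutant libraries and *Sema3e* at 10.04 and 6.18 against 0.41 and 0.21 FPKM, with log2 changes of -4.17 ± 0.39 and -2.77 ± 0.30. Among growth factors outside the main pathways, *Hbegf* fell from 141 and 91.2 FPKM to 17.1 and 17.1 FPKM and *Pdgfa* from 64.9 and 30.8 FPKM to 8.01 and 12.97 FPKM, both ligands that act on neighbouring cells. Cholesterol synthesis had 2 rises among 18, *Tm7sf2* from 4.28 and 5.23 FPKM to 19.4 and 22.5 FPKM and *Dhcr7* from 6.34 and 4.77 FPKM to 18.5 and 13.7 FPKM. Antigen presentation had no call by limma among 13, with 3 at an unadjusted p under 0.05, beside 4063 of all 12090 genes tested. *B2m* stood at 2583 and 2255 FPKM in WT and 3123 and 3653 FPKM in mutant libraries.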
